A study of Mus musculus with 36 samples.

Results

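The Rag1, Rag2 and Traf6 locus is a cluster of 6 neighbouring protein-coding genes on mouse chromosome 2, namely Rag2, Rag1, Traf6, Prr5l, Commd9 and Ldlrad3, out of 22350 protein-coding genes placed on the maps. The genes were chosen by name as neighbours because of the replication timing (RT) states measured here. The states and domain limits below are therefore a description of what chose the locus, with no test. Around them a window of 2 Mb on either side was taken, from 99460001 to 104040000 of chromosome 2 in the mm9 build. It spans 4.58 Mb, 229 of 131957 bins of 20 kb, and 28 protein-coding gene starts.

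Repli-seq gives the RT. In this assay cells take up the nucleotide analogue BrdU during replication, are sorted into early and late S phase, and their BrdU-labelled DNA is sequenced. The series holds 36 libraries in 7 groups, and 8 of them lie behind the 2 B cell maps used here. The first map is from the mouse B lymphoma line CH12, infected to express a control short hairpin RNA against LacZ (CH12 shLacZ, 4 libraries). The second is from WT primary B cells (primary B WT, 4 libraries). The study's results text describes these as activated B cells from mouse spleen. The labels give a single growth protocol for all libraries, in which CH12 cells receive IL4, CD40 and TGF beta stimulation, and they give neither the strain nor the age of the mice. A further map is named for mouse embryonic fibroblasts (MEFs) but no library's label mentions it, and the study's dataset list takes its MEF Repli-seq reads from elsewhere, so its cells are known by name only. Libraries with Mcm6 knockdown or Rif1 loss were not analysed here.

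Each map assigns the genome to early (E), middle (M) or late (L) states, and replicates had been merged before the states were called. With 1 map per condition, no value below has a replicate error, and the read depth behind a state cannot be read from the maps. CH12 and primary B cells differ in origin, in transformation and in infection, and may differ in culture and stimulation. These cannot be told apart.

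Replication timing is the order in which parts of the genome are copied during S phase. Early replication generally goes with open chromatin, GC-rich sequence and many active genes, and late replication with gene-poor, lamina-associated DNA. Rag1 and Rag2 encode the 2 subunits of the recombinase that cuts immunoglobulin and T cell receptor genes in developing lymphocytes, and both genes are normally silent in mature B cells. Traf6 encodes a ubiquitin ligase that relays signals from CD40, Toll-like and interleukin-1 receptors, and is widely expressed. Prr5l encodes a partner of the mTORC2 kinase complex, Commd9 a COMMD protein that acts in endosomal recycling, and Ldlrad3 a membrane protein of the low-density lipoprotein receptor family.

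The 6 genes lay within 562 kb. Rag2 (101464875 to 101472685, plus strand) and Rag1 (101478439 to 101489658, minus strand) were convergent and separated by 5.75 kb, and both were short, at 7.81 and 11.2 kb. Traf6 (101518586 to 101541826, plus strand, 23.2 kb) began 28.9 kb beyond the start of Rag1. Prr5l (101554442 to 101723184, minus strand) covered 169 kb and ended 12.6 kb from Traf6. Commd9 (101726404 to 101741803, plus strand, 15.4 kb) began 3.22 kb from the start of Prr5l, so that these genes were transcribed away from each other. Ldlrad3 (101790360 to 102026542, minus strand) was the longest, at 236 kb, and lay 48.6 kb from Commd9. In the GENCODE M1 annotation a further protein-coding model, B230118H07Rik (101400938 to 101489689, minus strand), overlapped both Rag1 and Rag2 and started 31 bases above the start of Rag1. The RefSeq annotation places the start of Rag1 itself at that base, 101489689.

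The upstream sequences carry a feature that the choice of the locus did not use, the number of CG dinucleotides before each gene start. They are shown for 4 members, the Rag genes, Traf6 and Ldlrad3. Traf6 and Ldlrad3 had the highest CG counts of all members, so the sequences shown sharpen the contrast. Prr5l and Commd9 are described below by their counts only. The sequences are the 250 bases before the GENCODE start in the NCBIM37 (mm9) reference. They are written 5′ to 3′ on the strand of the gene, with every CG in capitals. For Rag1, the 31 bases next to the start are left out because they are exonic in B230118H07Rik, which leaves 219 bases. By its RefSeq start, these 31 bases belong to Rag1 itself.
Rag1 (chr2:101489690-101489908, minus strand): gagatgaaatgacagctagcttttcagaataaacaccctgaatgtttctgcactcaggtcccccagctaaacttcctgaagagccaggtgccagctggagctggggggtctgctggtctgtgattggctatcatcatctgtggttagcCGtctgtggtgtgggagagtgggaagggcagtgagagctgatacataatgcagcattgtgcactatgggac
Rag2 (chr2:101464625-101464874, plus strand): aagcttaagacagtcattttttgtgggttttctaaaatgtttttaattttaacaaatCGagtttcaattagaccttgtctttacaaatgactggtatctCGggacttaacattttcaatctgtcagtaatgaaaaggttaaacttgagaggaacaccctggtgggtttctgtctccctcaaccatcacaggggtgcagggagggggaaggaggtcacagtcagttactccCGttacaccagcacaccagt
Traf6 (chr2:101518336-101518585, plus strand): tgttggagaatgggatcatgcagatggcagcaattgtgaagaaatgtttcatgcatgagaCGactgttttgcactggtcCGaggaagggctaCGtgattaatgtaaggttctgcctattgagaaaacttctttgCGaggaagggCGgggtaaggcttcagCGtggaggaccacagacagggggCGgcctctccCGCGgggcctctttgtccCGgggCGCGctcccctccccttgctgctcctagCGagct
Ldlrad3 (chr2:102026543-102026792, minus strand): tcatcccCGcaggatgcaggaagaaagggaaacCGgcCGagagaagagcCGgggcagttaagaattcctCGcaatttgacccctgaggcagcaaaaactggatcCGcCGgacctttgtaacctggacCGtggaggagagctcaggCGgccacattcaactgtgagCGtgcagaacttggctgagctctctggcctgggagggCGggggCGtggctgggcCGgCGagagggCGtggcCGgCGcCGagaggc

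The Rag genes differed in these sequences from Traf6 and Ldlrad3, while the neighbour Prr5l, described below, was close to Rag1. The 250 bases before Rag1 held 1 CG and those before Rag2 held 3, compared with 13 before Traf6 and 18 before Ldlrad3. A CpG observed over expected ratio compares the CG count with that given by the base composition. It was 0.0659 for Rag1, above that of 8.97% of the 22345 promoters with 250 bases of sequence, and 0.278 for Rag2, above that of 32.6%. Traf6 had a ratio of 0.672 (64.2% of promoters lower) and Ldlrad3 a ratio of 0.736 (70.5% lower).

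Prr5l resembled Rag1, with 1 CG and a ratio of 0.0707, while Commd9 had 10 CG and a ratio of 0.534. A count of at most 1 CG on the 250 bases was found for 16.6% of all promoters, for 39.1% of those of genes starting in L domains of CH12 cells and for 7.06% of those in E domains, and 92.5% held at least 1 CG. The median ratio was 0.496 over all promoters, 0.236 for genes starting in L domains of CH12 cells and 0.613 for genes starting in E domains. Rag1 and Prr5l were below all 3 of these medians, and Traf6 and Ldlrad3 were above all 3. Rag2 lay between the L and the overall median and Commd9 between the overall and the E median. The counts rest on the GENCODE starts and were not repeated at RefSeq starts. The RefSeq starts of Rag1, Rag2, Traf6, Commd9 and Ldlrad3 lay within 75 bases of those used, whereas RefSeq lists 3 starts for Prr5l, 1 at the same base and the others 44047 and 85320 bases away.

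The locus was late in CH12 cells and early in primary B cells. In the CH12 shLacZ map the starts of Rag2, Rag1, Traf6, Prr5l and Commd9 lay in a single L domain of 1460 kb (100560001 to 102020000). In the primary B WT map all 6 starts lay in a single E domain of 3280 kb (101440001 to 104720000). The map named for MEFs also had all 6 in a single E domain, of 2420 kb (101440001 to 103860000).

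**Figure D1:**
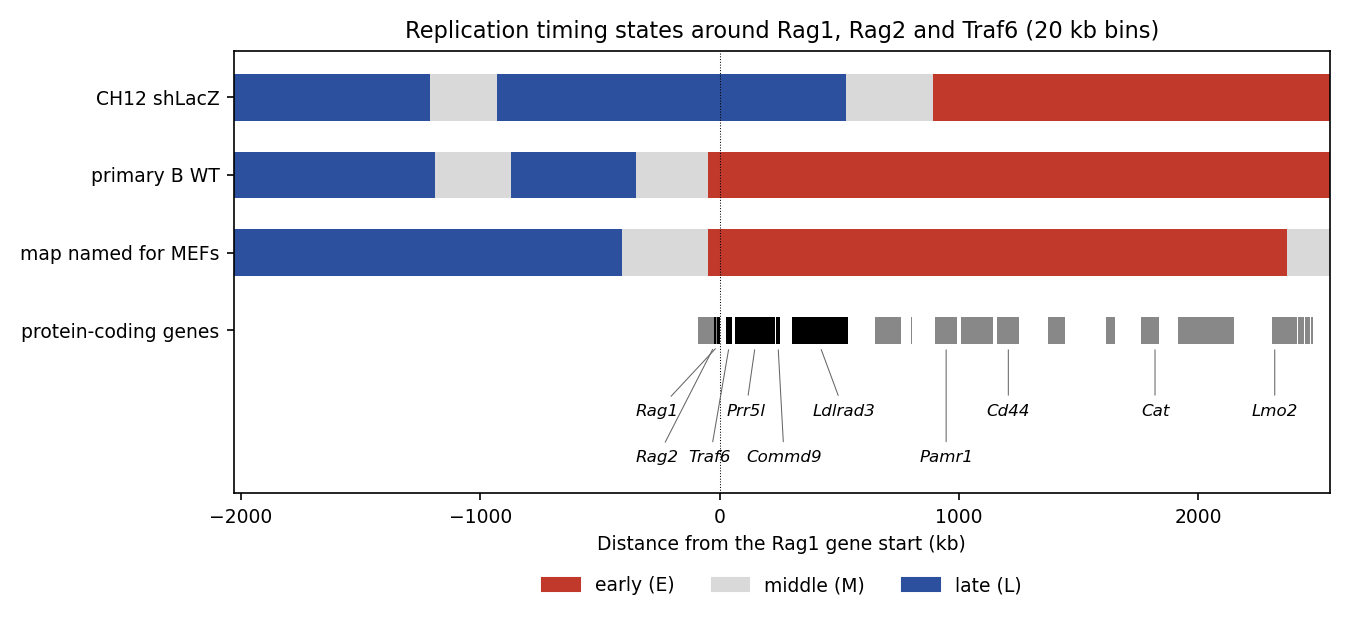
RT state of each 20 kb bin (colour) in the CH12 shLacZ, primary B WT and MEF-named maps, against the distance from the Rag1 gene start in kb. Bars in the lowest row are protein-coding genes, with the 6 members in black and other genes in grey. The L domain over Rag1 in CH12 cells spans 1460 kb, while the E domains of both other maps begin at the same bin, 49.7 kb below the Rag1 start.

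Rag1 and Rag2 lay well inside the L domain in CH12 cells but close to an edge of the E domain in the other maps. In CH12 cells the Rag1 start was 530 kb from the nearest end of its L domain and the Rag2 start 555 kb. In both primary B cells and the MEF-named map the E domain began 49.7 kb below the Rag1 start and 24.9 kb below the Rag2 start. These distances are shorter than the 300 kb span over which RT had been smoothed. Both genes were E over their whole length in these maps, over 2 bins for Rag1 and 1 bin for Rag2, and L over the same bins in CH12 cells. Bins so close to the edge lie within the smoothing span, so this does not lessen that limit.

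Traf6, the gene for the signalling ligase, lay 78.6 kb inside the E domain of primary B cells and of the MEF-named map, and 501 kb inside the L domain of CH12 cells. Its 3 bins were L in CH12 cells and E in the others. Prr5l, the mTORC2 partner, covered 10 bins, of which 10 were L in CH12 cells and 10 were E in each of the other maps. Its start was 297 kb from the nearest L edge in CH12 cells and 283 kb from the nearest E edge in the others. Commd9 had nearly the same position, 294 kb and 286 kb from these edges. All these distances except that of Traf6 in CH12 cells are also shorter than the 300 kb smoothing span.

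Ldlrad3 was the member at the boundary. Its start lay 6.54 kb beyond the end of the L domain in CH12 cells, in an M domain of 360 kb (102020001 to 102380000), which is less than 1 bin. Of the 13 bins over its body 12 were L and 1 was M in CH12 cells, whereas 13 were E in primary B cells and in the MEF-named map. Placed by the state of most of its body, Ldlrad3 was L in CH12 cells, and the count of members in L there was then 6 of 6 in place of 5 of 6.

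Few genes in the genome had this pattern of states. A start that was L in the line but E in primary cells was found for 133 of 22350 protein-coding genes (0.595%), 5 of which are members. L in CH12 cells and E in the MEF-named map was found for 452 genes (2.02%), and L in CH12 cells with E in both other maps for 41 genes (0.183%). The same 5 members are among each of these. Of the 4950 genes that started in L domains of CH12 cells, the 41 made up 0.828%. An earlier state in primary B cells than in CH12 cells was more common, at 4193 genes (18.8%), and included 6 of 6 members. E in both primary B cells and the MEF-named map was the state of 11066 genes (49.5%), again including 6 of 6 members. Since these states chose the members, the background shares place the locus in the genome and are no support for it.

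The stretch of bins that was L in CH12 cells and E in both other maps ran unbroken for 580 kb (101440001 to 102020000, 29 bins) and held 6 protein-coding starts, those of the 5 members and of B230118H07Rik. There were 28 such runs on 15 chromosomes. They added up to 259 bins, and the median run was 150 kb long. The run at Rag1 was second in length and held 29 of these bins. The longest, of 800 kb on chromosome 16, held the starts of Sst, Rtp2, Bcl6 and Lpp, where Bcl6 encodes a repressor of germinal centre B cells. Only 5 of the runs reached the smoothing span of 300 kb.

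**Figure D2:**
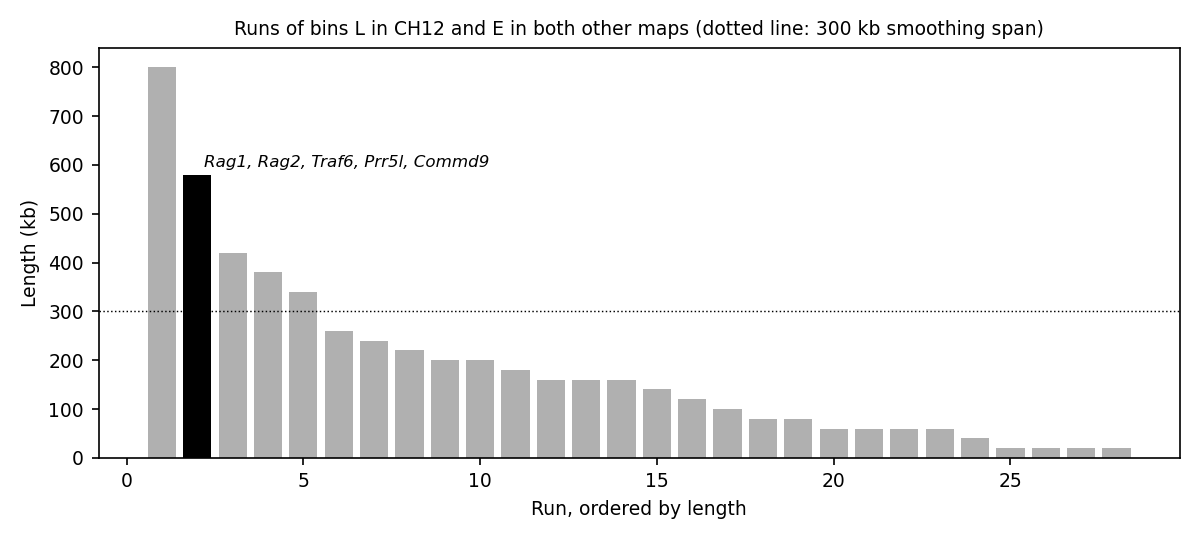
Length in kb of each of the 28 runs of 20 kb bins that were L in CH12 shLacZ and E in both the primary B WT and MEF-named maps, ordered from longest to shortest. The black bar is the 580 kb run with Rag1, and the dotted line is the 300 kb smoothing span, which 5 runs reach.

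Against primary B cells alone, the 580 kb run ranked 5 of 75 runs of L in the line against E in primary cells, whose median was 160 kb and longest 1380 kb. Against the MEF-named map alone it was less exceptional in length, at rank 39 of 234 with a median of 260 kb. Among domains of its state and map, the L domain of CH12 cells was longer than 59.3%. The E domain was longer than 94.2% in primary B cells and than 83.2% in the MEF-named map. The L domain of CH12 cells ranked 301 of 750 L domains by length, whose median was 1100 kb. The E domain of primary B cells ranked 38 of 660, with a median of 740 kb, and that of the MEF-named map ranked 95 of 567, with a median of 960 kb.

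The difference between the B cell maps at the locus took the form of one displaced edge. In CH12 cells the E domain on the higher side of the locus began at 102380001, beyond Ldlrad3, Trim44 and Fjx1, and ended at 104740000. In primary B cells the E domain began 940 kb lower, before Rag2, and ended within 20 kb of the CH12 domain, at 104720000. It therefore covered nearly all of the CH12 E domain and extended over the 6 members. Across the genome, 541 edges of E domains in primary B cells lay within 100 kb of the same edge of an overlapping E domain in CH12 cells. At the opposite edge the primary B domains reached further out by a median of 60 kb (interquartile range −20 to 180 kb). The extension of 940 kb at the locus ranked 40 among these 541, and the largest was 6100 kb.

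The E domain of primary B cells and that of the MEF-named map began at the same bin, between the Rag genes and the region without protein-coding starts below them. The MEF-named map has no E domain on the X chromosome. Of 1262 E domain edges on the autosomes in primary B cells, 40 (3.17%) fell at the same bin as one in the MEF-named map, 386 (30.6%) lay within 100 kb, and the median distance was 320 kb. The opposite ends of these domains did not coincide, since the MEF-named map returned to M at 103860001 while E continued to 104720000 in primary B cells. The shared edge falls inside the annotated body of B230118H07Rik, which starts in E and whose far end lies in M in both maps.

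Below the locus no map had an E bin within the window. The 99 bins of the window before the stretch held 0 protein-coding gene starts, and the next such start below Rag2, that of the gene model Gm10800, lay 2957 kb away and was L in all 3 maps. The 5 nearest starts on that side, all outside the window, were those of Gm10800, Gm10801, Lrrc4c, Api5 and Ttc17. Only Api5, which encodes an inhibitor of apoptosis, and Ttc17 were not L, both M in the B cell maps and E in the MEF-named map. Gaps between consecutive protein-coding starts had a median of 40.3 kb, and this gap ranked 32 of 22330 by length. In CH12 cells L gave way to M from 100280001 to 100560000 and then to the L domain with the members. Primary B cells had M at almost the same place, from 100300001 to 100620000, followed by L for 520 kb and M for 300 kb up to the E edge. The MEF-named map was L throughout until 101080000, with M for 360 kb up to the E edge.

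Above the locus the maps came together. Of the 5 nearest genes on that side, Trim44 and Fjx1 were M in CH12 cells and E in the other maps, as was the start of Ldlrad3, while Pamr1, Slc1a2 and Cd44 were E in all 3 maps. Slc1a2 encodes a glutamate transporter, and Cd44 a hyaluronan receptor of activated lymphocytes. A run of 74 bins with 12 gene starts, from Pamr1 to Lmo2, was E in all 3 maps. Lmo2 encodes a transcriptional adaptor of blood stem cells. The 7 starts from Fbxo3 to A930018P22Rik were E in both B cell maps and M in the MEF-named map. At the higher window limit, A930018P22Rik lay 77.1 kb inside and D430041D05Rik, the first gene outside, lay 210 kb beyond it, with the same states (E, E and M). At the lower limit Rag2 was the first start inside, 2005 kb from it, and Gm10800 lay 953 kb outside.

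The bins of the window differed more between CH12 and primary B cells than between primary B cells and the MEF-named map. CH12 and primary B cells had the same state in 163 of 229 bins (71.2%), compared with 76.1% of bins genome-wide. Of the other bins, 65 were earlier in primary B cells and 1 was later, and 29 changed from L to E. CH12 cells and the MEF-named map had the same state in 141 bins (61.6%, 63.5% genome-wide), with 65 bins earlier in the MEF-named map and 23 later. Primary B cells and the MEF-named map had the same state in 201 bins (87.8%, 68.6% genome-wide), with 3 bins earlier and 25 later in the MEF-named map, and in 0 bins was E set against L. The comparisons with CH12 cells depend on the window limit. With 3 Mb either side the shares were 78.7% for primary B cells and 68.1% for the MEF-named map, above the genome-wide shares, and with 1 Mb they were 49.6% and 45.7%. Neighbouring bins share a domain, so bins are not independent observations, and the 2 comparisons of CH12 cells share the CH12 map.

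The window had more E than the genome in each map. E made up 36.2% of window bins in CH12 cells, 56.8% in primary B cells and 52.8% in the MEF-named map, against 22.7%, 28.6% and 30.7% of all bins. L made up 49.8% of the window in CH12 cells, the same share as genome-wide, but 29.7% in primary B cells and 35.4% in the MEF-named map, where it was 39.0% and 30.6% genome-wide. With 1 Mb either side L made up 56.6% in CH12 cells, above the genome-wide share, and 24.0% in the MEF-named map, below it. M was less frequent in the window, at 32 of 229 bins in CH12 cells, 31 in primary B cells and 27 in the MEF-named map, than genome-wide, at 27.4% to 38.7% of bins.

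**Figure D3:**
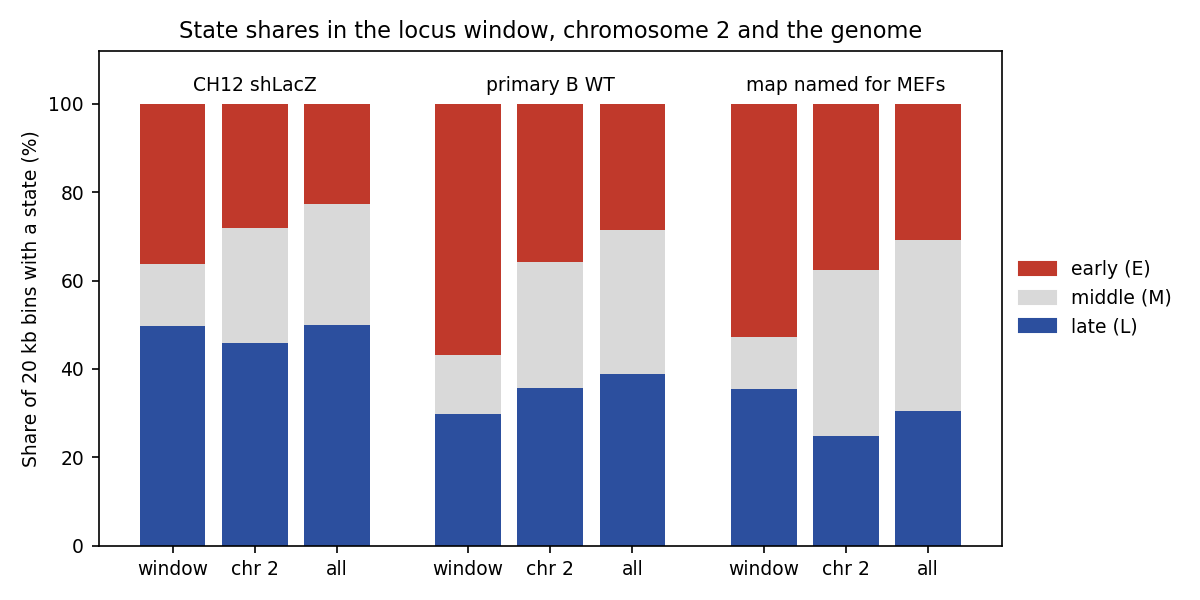
Share of 20 kb bins with a state (y axis, %) that were E, M or L in the window, on chromosome 2 and on all chromosomes, for each map. E reaches 56.8% of the window in primary B WT and 36.2% in CH12 shLacZ, where L holds 49.8%.

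The base composition of the locus, which played no part in its choice, was closer to that of E than of L domains. The 29 bins of the stretch had a mean GC content of 45.2%, with a lowest bin of 39.7%, a median of 45.7% and a highest bin of 48.0%. All bins that were L in CH12 cells averaged 39.4%, and all 29 bins of the stretch were above the median of these (39.1%). All bins that were E in CH12 cells averaged 45.7% and all that were E in primary B cells 45.2%. The 259 bins that shared the pattern of the locus averaged 43.0%, and bins that were L in all 3 maps 38.2%.

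GC content rose unevenly across the window, with no step at the edge shared by primary B cells and the MEF-named map. The last bin before that edge had 39.985% and the first bin after it 39.66%. The window before the stretch averaged 37.6% and the window after it 43.5%, and the 15 bins immediately before it, L in CH12 cells and M in the other maps, averaged 40.6%. Within the stretch the bin lowest in GC (39.7%) was the first, at the Rag2 end, and the highest (48.0%) lay over Prr5l, which also covered a bin of 41.5%. Gene starts numbered 10.3 per Mb in the stretch and 10.9 per Mb after it. All bins held 8.47 per Mb, all L bins of CH12 cells 3.76 per Mb and all E bins of CH12 cells 18.9 per Mb. The density in the stretch rests on 6 starts, 5 of them those of members, so it is not independent of the choice of genes. The remaining start, that of B230118H07Rik, is the same base as the RefSeq start of Rag1. Both GC and gene density rise from L to E genome-wide in each map, so they are not independent of RT in general.

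**Figure D4:**
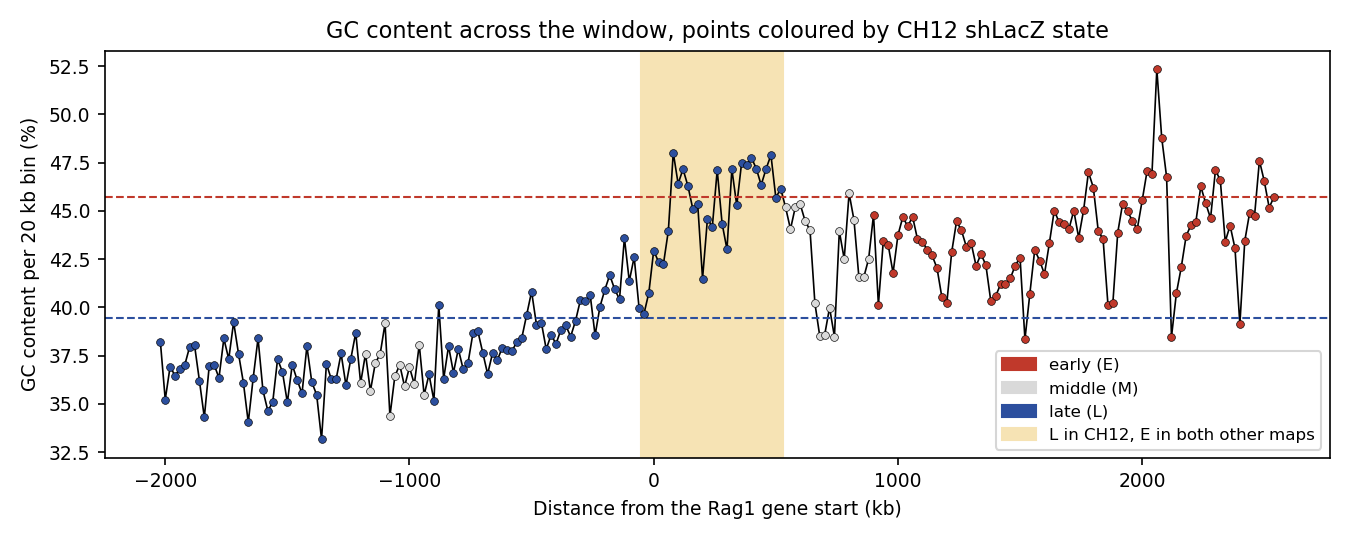
GC content (y axis, %) of each 20 kb bin against the distance from the Rag1 gene start in kb, with points coloured by the CH12 shLacZ state. The shaded stretch is L in CH12 and E in both other maps. Dashed lines are the means of all L bins (blue, 39.4%) and all E bins (red, 45.7%) of CH12 cells. All 29 bins of the stretch lie above the blue line, and their mean is 45.2%.

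The partners of the members in their pathways lie elsewhere in the genome, and their states were compared by gene start over 7 lists. Of 70 listed genes outside the locus, 0 were L in CH12 cells and E in both other maps, 34 were E in all 3 maps, 7 were L in CH12 cells, and 13 were earlier in primary B than in CH12 cells. Over all protein-coding genes these shares were 0.183%, 43.9%, 22.1% and 18.8%, so a count of 0 for the first says little about 70 genes. E was the state of 50.6% of all starts in CH12 cells, 58.0% in primary B cells and 58.6% in the MEF-named map, and the counts below are to be read against these shares. The genes below that are not members and do not lead a list alphabetically were named after their states were seen.

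The V(D)J recombination and end joining list held 13 genes. Of the 11 outside the locus 2 were L in CH12 cells, near the 22.1% of all genes. These were Lig4, the ligase that seals the joined ends, which was L in all 3 maps, and its cofactor Xrcc4, which was L in both B cell maps and M in the MEF-named map. Of the same 11 genes, 0 were earlier and 1 was later in primary B than in CH12 cells. The later one was Xrcc5, which encodes Ku80 and was E, M and E in CH12 cells, primary B cells and the MEF-named map. Dntt, the polymerase that adds nucleotides at junctions, and Dclre1c, the Artemis nuclease, were E in both B cell maps and M in the MEF-named map. Atm, Hmgb2 and Prkdc were M in all 3 maps, and Hmgb1, Nhej1 and Xrcc6 were E in all 3.

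Of 12 listed transcription factors that act on the Rag genes, 7 were E, 4 M and 1 L in CH12 cells, against 50.6% of all genes in E there. In primary B cells 11 were E and 1 M, against 58.0% of all genes in E, and in the MEF-named map 6 were E and 6 M, against 58.6% in E. Foxo1, an activator of Rag transcription, Ebf1, a factor that specifies B cells, and Runx1 were M in CH12 cells and E in the other maps, which is the triple of Ldlrad3. Satb1, a chromatin organiser, was L, E and M in CH12 cells, primary B cells and the MEF-named map, and was the only listed regulator in L in CH12 cells. Ets1, Gfi1b and Tcf3 were E in all 3 maps. Pax5, Ikzf1, Foxp1 and Myb were E in both B cell maps and M in the MEF-named map, and Gata3, a T cell factor, was M in all 3.

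The states of Traf6 were part of the choice of the locus, so its difference from its own family was set by that choice. The other 6 TRAF genes, Traf1, Traf2, Traf3, Traf4, Traf5 and Traf7, were E in all 3 maps, against 43.9% of all genes. Among 21 genes of TRAF6 signalling, 14 were E, 6 M and 1 L in CH12 cells, where all genes were divided into 50.6% E, 27.2% M and 22.1% L. In primary B cells 16 were E and 5 M, against 58.0% of all genes in E. The gene in L was Tlr4, the receptor for lipopolysaccharide, which was M in the other maps. The receptor gene Cd40 and the genes of the ubiquitin-conjugating partners Ube2n and Ube2v1 were among the 11 that were E in all 3 maps. Il1r1 and Tab2 went from M in CH12 cells to E in the others, Cyld was E in primary B cells alone, and Myd88 was M in primary B cells alone.

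In the mTORC2 list, Mtor, Mlst8, Mapkap1 and Prr5, a paralogue of Prr5l, were E in all 3 maps. Of the 6 listed genes outside the locus, 1 was earlier in primary B than in CH12 cells, against 18.8% of all genes. It was Rictor, the defining subunit, which was L, M and E in CH12 cells, primary B cells and the MEF-named map. Deptor was M, M and E in the same order. Of the 11 COMMD and CCC complex genes outside the locus, 4 were E in all 3 maps, against 43.9% of all genes, and 4 were earlier in primary B than in CH12 cells, against 18.8%. The former were Commd1, Commd4, Commd5 and Commd7. The latter were Commd2, Commd3, Commd10 and Ccdc93, and Commd10 and Ccdc93 were L, M and E in the order of the maps above. The other 3 LDLRAD genes were E in all 3 maps, against 43.9% of all genes, while Ldlrad3 was M, E and E.

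**Figure D5:**
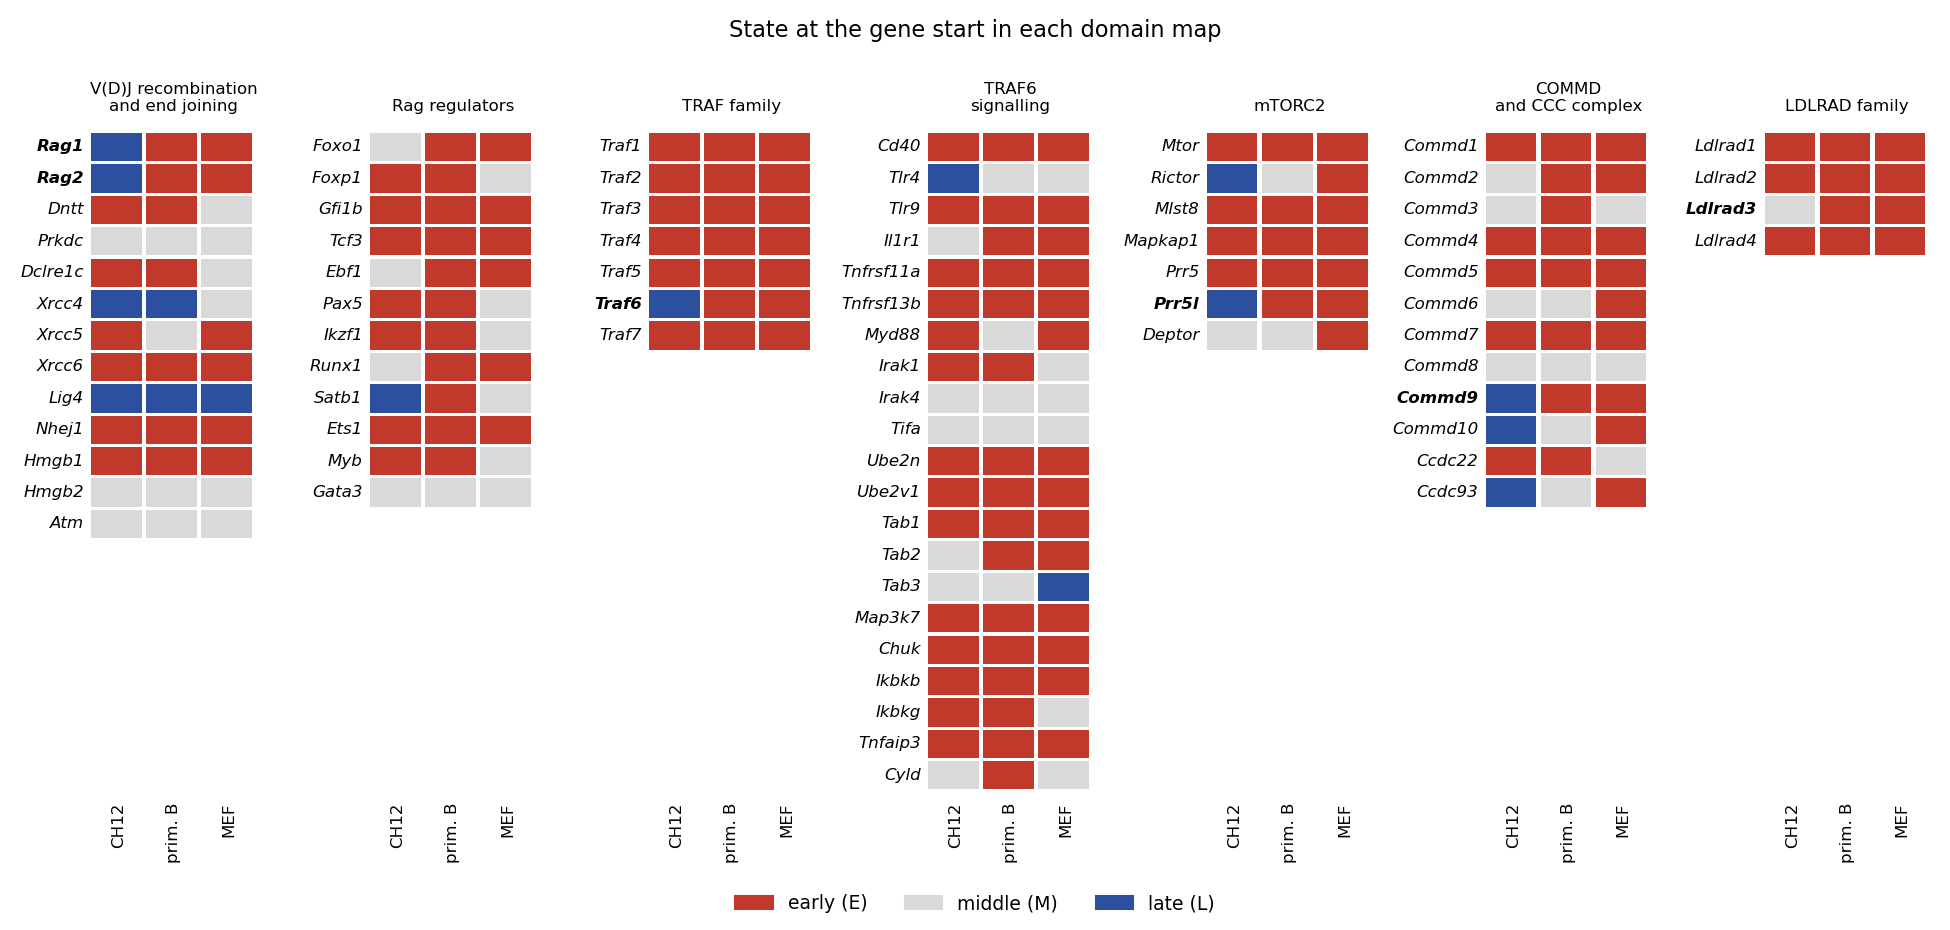
State at the gene start (colour) of each listed gene in the CH12 shLacZ, primary B WT and MEF-named maps, with 1 column per map and 1 block per list. Members are in bold. Only the 5 members Rag1, Rag2, Traf6, Prr5l and Commd9 have the triple L, E, E, and 34 of the 70 other genes are E throughout.

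The surroundings of Rag1 were also set against those of other genes by the share of 153 states, 51 bins within 500 kb in each of 3 maps, that matched those around Rag1 in either orientation. Over 22013 genes the median share was 39.9%. The closest outside the window was Sdpr on chromosome 1, which encodes a caveola protein, with 137 of 153 states matching (89.5%). Gpr45 on chromosome 1, an orphan receptor gene with 2 entries of that symbol, followed with 129 (84.3%). Dnajc6 on chromosome 4, which encodes the clathrin-uncoating protein auxilin, had 127 in the turned orientation (83.0%), and Bmpr1b on chromosome 3, a bone morphogenetic protein receptor gene, had 124 (81.0%). At the gene start itself, only Dnajc6 of these shared the L, E and E states of Rag1, while Sdpr, Gpr45 and Bmpr1b were L, M and E. Neighbouring bins share a domain, so the 153 states are not independent.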

How the data were processed

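Per the submitters' processing notes and the methods, the authors trimmed reads with Trim Galore 0.6.5, aligned them to mm9 with BWA 0.7.17, merged replicates, removed duplicates, computed log2 early over late ratios in 20 kb bins, smoothed them by loess over 300 kb and called 3 states with a hidden Markov model. Merging removed the replicate spread, and smoothing blurs domain edges. The deposited maps used here hold the start, end and state number of each domain, with no RT value, count or depth. Numbers 2, 1 and 0 were read as E, M and L in both B cell maps, and 0, 2 and 1 in the MEF-named map. States named E and L touched in 0 places, and GC content and gene density fell from E to L.

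In each map the final domain of all 20 chromosomes stopped at the length given in the NCBIM37 (mm9) reference. Genes came from GENCODE M1 and were placed by their start on their own strand. Some bins have no state in primary B cells, so genome-wide shares for that map use 128935 bins. The members, gene lists and comparisons were chosen with earlier results of these data known. Named by rule were the members, the first and last gene of each domain in the window, the nearest 5 on each side, up to 4 genes per list and the 5 entries most like Rag1. All values are descriptions without a test. Scripts were tested on simulated maps (5 of 5 checks passed).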

Additional observations from a re-analysis of the deposited data

How the results depend on the processing

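No paired analysis was possible because replicates had been merged before the states were called and no value comes from a test. Of 96 alternative values for 30 results, 71 stayed within a limit and 25 passed it. The limit was the Wilson 95% interval of the main value for a share, which is narrow for shares over all genes and so is passed by small changes, and a ratio of 1.5 for a count or length. The states of the members at their starts depend on the placement only for Ldlrad3.

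With 1 Mb either side, E made up 25.6% and L 56.6% of the window in CH12 cells, L 20.2% in primary B cells, and E 62.0% and L 24.0% in the MEF-named map. With 3 Mb either side, E made up 49.8% in primary B cells, and E 43.2% and M 17.02% in the MEF-named map. The share of bins in the same state in CH12 and primary B cells was 49.6% with 1 Mb, 78.7% with 3 Mb and 80.6% without bins within 100 kb of a boundary. For CH12 cells and the MEF-named map it was 45.7%, 68.1% and 73.0%. For primary B cells and the MEF-named map it was 91.5% with 1 Mb and 94.3% without boundary bins.

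On chromosome 2 alone the 5 background shares of genes were 0.867% (L in CH12 cells with E in primary B cells), 2.22% (with E in the MEF-named map), 0.325% (with E in both), 16.3% (earlier in primary B cells) and 54.0% (E in primary B cells and the MEF-named map). Over all annotated genes the last 2 were 20.2% and 43.2%, and on autosomes alone the last was 51.7%. By the state of most of the gene body, 1 LDLRAD gene, Ldlrad3, was L in CH12 cells and E in both others, against 0 by gene start. Other listed genes changed state by this placement too. In the order CH12 cells, primary B cells and MEF-named map, Satb1 was then L, M and M, and Foxp1 and Ebf1 were M, E and M. Ldlrad4 was M, E and E, so the LDLRAD genes outside the locus were not all E throughout. The cause of these differences was not tested beyond the change in bins or genes counted.

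Depth cannot be judged, since the maps hold no counts, and an edge is no more precise than the 20 kb bin and the 300 kb smoothing.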
